A study of Homo sapiens with 96 samples.

Results

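Neuron and astrocyte co-cultures that had been exposed to methyl mercury chloride at IC5 were compared with co-cultures exposed to the same compound at IC20/100. The members are 15 of the 96 libraries of the series, 8 at IC5 and 7 of the 8 at IC20/100, chosen by the exposure named in their labels. IC5 is taken here to be the concentration that inhibits by 5%, and IC20/100 a 100-fold dilution of the one that inhibits by 20%. Molar concentrations, the endpoint behind these percentages and exposure times were not given in the sources used here. Both groups held the same vehicle, dimethyl sulfoxide at 0.25% of the medium, so the difference between them is one of concentration. As a reference for levels, 8 unexposed day 10 co-cultures (controls) are given, whose vehicle was not given in the sources used here. All cultures were grown from neural progenitor cells of the established human embryonic stem cell line H9 in a differentiation medium with neurotrophic factors, and polyadenylated RNA was sequenced on day 10. The 8 libraries of each group were technical replicates of 1 experiment, so every p-value below measures the spread between such libraries and not between experiments.

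Methyl mercury is an organic mercury compound that crosses into the brain and is known for harming the developing nervous system. It binds thiol and selenol groups, and is known to disturb glutathione, selenoenzymes and microtubules. Cells that are short of amino acids or loaded with misfolded proteins phosphorylate the initiation factor eIF2 alpha. This lowers bulk translation and raises translation of the transcription factor ATF4, which with CHOP (gene DDIT3) switches on amino acid transporters, amino acid synthesis enzymes and tRNA synthetases.

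Values are reads divided by 1 size factor per library, as the authors deposited them, and are given as lowest to highest with the median in brackets. Recovered reads per library came to 14.9 to 26.02 M at IC5, 9.49 (replicate 6) to 21.1 M at IC20/100 and 16.9 to 26.9 M in controls, with both exposed groups present in all 6 sequencing runs. IC20/100 replicate 8 was left out because its deviation from the median profile followed transcript length (Spearman rho -0.334 across genes, against -0.0716 to 0.0659 in the 15 libraries used). It held, for example, 4207 of FABP7, against 2039 to 2205 in the other 7 libraries. IC5 replicate 4 was the outlying IC5 library for 12 of the genes named here, and 908 genes were called without it. The neuronal genes TUBB3 and DCX were at 17229.7 or more in all 15 libraries. Of 22 astrocyte markers, GFAP, the defining intermediate filament, lay between 10.5 and 49.3, AQP4 was at 0 in 3 libraries and GJB6 in 15, whereas the glutamate transporter SLC1A3, shared with radial glia, reached 1563 or more, so the astrocyte label rests on few of its markers. Of 10 microglial and immune markers, AIF1, P2RY12, CSF1R and TYROBP were at 0 in all 15 libraries. The others were detected in at least 1 library at low values, CD14 reaching 27.3, CD68 15.7 and CX3CR1 11.7. In such bulk samples, fewer cells of a type and less RNA per cell cannot be told apart.

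Between the concentrations, 913 of 20118 genes tested passed an adjusted p under 0.05 (limma, Benjamini-Hochberg over all genes tested), 4.54% of them. Of these, 469 were higher at IC5 (2.33%) and 444 lower (2.21%), and 56 in each direction (0.278%) differed by at least 1.5-fold. The direction was the same in all 6 sequencing runs for 302 of the 469 (64.4%) and 306 of the 444 (68.9%). These genes were called from the same libraries, so this share describes them and is not a further test. For 93 genes every IC5 library lay above every IC20/100 library (0.462%), and for 83 every IC5 library lay below (0.413%). Over all genes tested the median log2 difference was 0.00. The fit draws its spread from 87 libraries of 11 groups. A fit of the 15 libraries alone called 247 genes, 224 of them among the 913, and 69 of the 128 called genes named here that had a value in it.

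**Figure D1:**
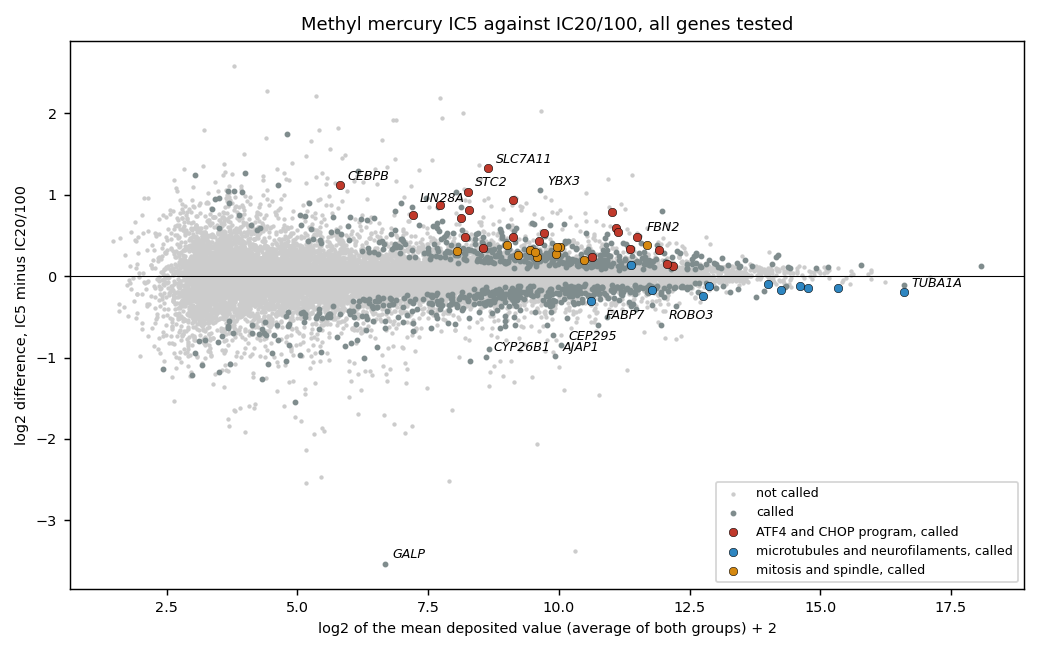
Log2 difference between IC5 and IC20/100 (y axis) against log2 of the mean deposited value plus 2 (x axis) for all genes tested, with called genes in dark grey and called members of 3 lists in colour. The called genes of the ATF4 and CHOP program lie above 0, with SLC7A11 at 1.33, and the called microtubule and neurofilament genes lie below 0 except MAP1A.

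Among 38 gene lists with at least 10 members tested, the ATF4 and CHOP program had the highest median difference, and all its called members were higher at IC5. Of 28 members tested, 22 rose and 0 fell, with a median log2 difference of 0.48, against a background of 2.33% called higher. For every list counted below between the concentrations, the background was 2.33% of all genes called higher and 2.21% lower. Most members were lower in both exposed groups than in controls. IC5 minus controls gave 0 members called higher and 23 called lower (7.27% and 7.37% of all genes, 14.6% together), with a median of -0.41. IC20/100 minus controls gave 0 higher and 24 lower (6.67% and 6.74% of all genes, 13.4% together), with a median of -0.93. These comparisons share the same 8 controls, and the vehicle of the controls is not known.

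SLC7A11, the light chain of the cystine and glutamate antiporter (chr4:138164097-138242349, minus strand, GENCODE 29 on GRCh38), had the largest rise of the called protein-coding genes with a mean of at least 50 in either group. Its values were 409 to 716 (median 567) at IC5, 149 to 350.2 (median 213) at IC20/100 and 439.6 to 851 (median 758) in controls. All IC5 libraries lay above all IC20/100 libraries and overlapped the controls, and the log2 difference was 1.33 ± 0.13 (SE, adjusted p = 1.23e-12). CEBPB, a bZIP transcription factor that dimerises with ATF4, had 64.3 to 90.2 (median 71.03) at IC5, 26.3 to 40.99 (median 35.2) at IC20/100 and 92.4 to 154 (median 127) in controls. All 3 groups were separate from each other for CEBPB, and the difference between IC5 and IC20/100 was 1.12 ± 0.13 (SE, adjusted p = 1.65e-09). Other regulators rose too. ATF5 had 599 to 832 (median 741) at IC5, against 299.9 to 525 (median 356) at IC20/100, a difference of 0.94 ± 0.10 (SE, adjusted p = 6.17e-11), without overlap. TRIB3, a pseudokinase that dampens ATF4 and CHOP activity, had 184 to 321 (median 274) at IC5, against 105 to 195 (median 143) at IC20/100, with 7 of 8 IC5 libraries above every IC20/100 library (0.87, adjusted p = 2.22e-07).

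The mRNAs of CHOP and ATF4 were both higher at IC5. DDIT3, which encodes CHOP, had 289 to 399 (median 355) at IC5, against 167 to 255 (median 206) at IC20/100, a difference of 0.71 ± 0.10 (SE, adjusted p = 1.86e-07), and the groups did not overlap. ATF4 mRNA, whose protein is controlled largely at translation, had 4679 to 5162 (median 4793) at IC5, against 4154 to 4847 (median 4378) at IC20/100 and differed by 0.13 ± 0.03 (SE, adjusted p = 0.0144). Its groups overlapped, and the fit of the 15 libraries alone did not call it (adjusted p = 0.107). CEBPG, the usual partner of ATF4 in amino acid response, differed by 0.23 ± 0.03 (SE, adjusted p = 2.20e-07) without overlap. ATF3, an immediate early and stress-induced bZIP repressor, rose by 0.82 (adjusted p = 0.000151).

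Amino acid handling made up much of the list. The cationic transporter SLC7A3 had 303 to 371 (median 352) at IC5, against 209 to 273 (median 244) at IC20/100, with no overlap and a difference of 0.48 ± 0.05 (SE, adjusted p = 3.48e-12). SLC7A5, the light chain of the large neutral amino acid transporter, rose by 0.79 (adjusted p = 2.48e-07), and SLC3A2, the heavy chain shared by SLC7A5 and SLC7A11, by 0.33 (adjusted p = 0.00383). Asparagine synthetase, ASNS, had 2230.5 to 3039.6 (median 2551) at IC5, against 1543 to 2111 (median 1651) at IC20/100, with no overlap between the groups and a difference of 0.60 ± 0.07 (SE, adjusted p = 3.30e-10). Enzymes of serine synthesis rose too. PSAT1, the transaminase in the middle of serine synthesis, had 2998 to 3617 (median 3398) at IC5, against 2190.0 to 2823 (median 2304) at IC20/100, differed by 0.48 ± 0.04 (SE, adjusted p = 7.99e-15) and did not overlap. PHGDH, the first enzyme of that pathway, differed by 0.33 (adjusted p = 1.49e-05). The mitochondrial folate enzymes SHMT2 and MTHFD2 differed by 0.54 (adjusted p = 3.62e-10) and 0.48 (adjusted p = 6.98e-06).

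CHAC1, which degrades glutathione, had 163 to 215 (median 179) at IC5, 82.8 to 147 (median 103) at IC20/100 and 294 to 461 (median 371) in controls. The groups did not overlap, and the difference between IC5 and IC20/100 was 0.75 ± 0.11 (SE, adjusted p = 1.03e-06). SESN2, a stress-induced inhibitor of mTORC1, differed by 0.53 ± 0.06 (SE, adjusted p = 3.15e-10) without overlap. STC2, a secreted glycoprotein induced by endoplasmic reticulum stress, had 220.5 to 657 (median 409.6) at IC5, against 121 to 267 (median 196) at IC20/100, and its groups overlapped (1.04, adjusted p = 0.00889, and 0.102 in the fit of the 15 libraries alone). Outside the list, PCK2, the mitochondrial phosphoenolpyruvate carboxykinase, rose by 0.84 (adjusted p = 0.000348) and the netrin receptor UNC5B by 0.85 (adjusted p = 1.27e-06).

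**Figure D2:**
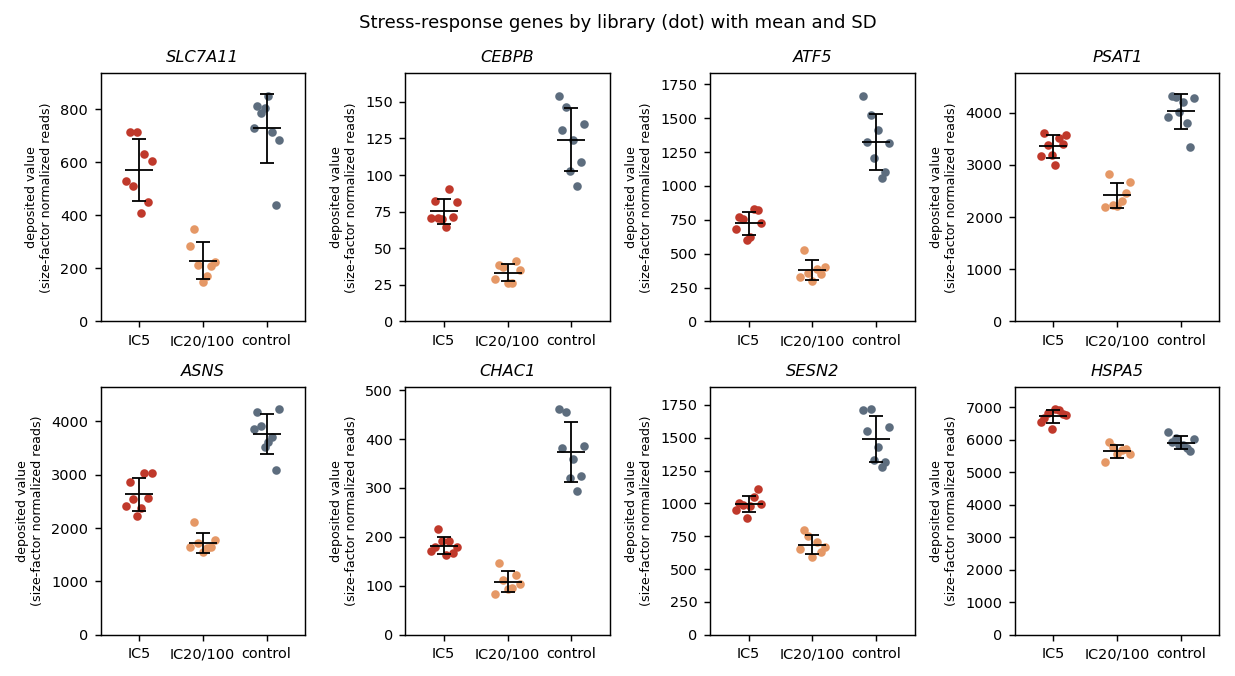
Deposited values (y axis, size-factor normalized reads, from 0) of 8 stress-response genes in the libraries at IC5 (8), at IC20/100 (7) and in controls (8). Dots are libraries, and the bar with whiskers is the mean with its SD. All panels show IC5 above IC20/100, and in 7 panels the controls have the highest mean, the exception being HSPA5.

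Binding elements for ATF4 with C/EBP factors carry the core TGATGNAA (reverse complement TTNCATCA), which was searched on both strands from 250 bases before to 50 after each gene start in RefSeq promoter windows (GRCh38.p14). It was in 3.62% of 35116 windows, and in 2.87% of the 13246 tested genes that had a window. In the ATF4 and CHOP program 7 of 24 members with a window held it. Of these 24, 18 were called higher at IC5, 5 of them with the match. Among the aminoacyl-tRNA synthetases 7 of 16 held it. Of these 16, 6 were called higher, 4 of them with the match. It was in 22 of 363 genes called higher at IC5 that had a window (6.06%) and in 5 of 313 called lower (1.6%). Both lists hold genes known to be switched on by ATF4, so matches in them are no independent result. The 22 include the 5 and the 4 called list members above. In the program the match was no more common in called members (27.8%) than in all members with a window (29.2%). A match describes these letters and not a bound site. No match was found for PSAT1, SLC7A11, SLC7A3 or ATF5, the program members with the lowest adjusted p, though not every member had a window. Stretches of 5 called genes whose match lies wholly before the gene start are shown as examples. The match is in capitals, 5′ to 3′ on the strand of the gene. They come from chr7:97872443-97872502, minus strand (ASNS), chr1:212565190-212565249, plus strand (ATF3), chr15:40953236-40953295, plus strand (CHAC1), chr19:33374045-33374104, plus strand (CEBPG) and chr16:70289660-70289719, minus strand (AARS).
ASNS: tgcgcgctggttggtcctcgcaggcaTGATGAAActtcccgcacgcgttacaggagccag
ATF3: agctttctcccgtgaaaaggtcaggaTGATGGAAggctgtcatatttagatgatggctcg
CHAC1: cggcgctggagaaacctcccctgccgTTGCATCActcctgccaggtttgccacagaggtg
CEBPG: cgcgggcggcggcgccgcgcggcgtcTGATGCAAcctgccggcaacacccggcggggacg
AARS: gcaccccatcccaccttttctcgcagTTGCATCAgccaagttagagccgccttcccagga
ASNS, ATF3 and CEBPG hold the core on the strand of the gene, and CHAC1 and AARS on the opposite strand.

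Aminoacyl-tRNA synthetases, which charge tRNAs with amino acids, gave 8 of 20 members higher at IC5 and 0 lower (median log2 difference 0.13, against 0.00 over all genes). SARS had 3727 to 4441 (median 4293) at IC5, against 3059 to 3634 (median 3425) at IC20/100, with no overlap and a difference of 0.32 ± 0.04 (SE, adjusted p = 1.44e-07). YARS, AARS, GARS and CARS differed by 0.25 (adjusted p = 2.10e-05), 0.30 (adjusted p = 7.68e-05), 0.36 (adjusted p = 0.00199) and 0.53 (adjusted p = 0.00623). The synthetases named all charge cytosolic tRNAs, and GARS charges mitochondrial tRNAs as well. The count was 2 in the fit of the 15 libraries alone.

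Endoplasmic reticulum chaperones rose in 7 of 20 and fell in 0, with a median of 0.15, and for HSPA5 and HSP90B1 IC5 lay above the controls as well. HSPA5 (BiP), the main luminal Hsp70 and sensor partner of the unfolded protein response, had 6331 to 6944 (median 6773) at IC5, 5308 to 5946 (median 5688) at IC20/100 and 5645 to 6232 (median 5889) in controls. All IC5 libraries lay above all IC20/100 and all control libraries, and IC5 exceeded IC20/100 by 0.25 ± 0.02 (SE, adjusted p = 1.93e-13). Against controls HSPA5 differed by 0.19 at IC5 (adjusted p = 2.59e-10) and -0.06 at IC20/100 (adjusted p = 0.0731). HSP90B1 (GRP94) exceeded IC20/100 by 0.22 ± 0.03 (SE, adjusted p = 1.32e-07), also without overlap, and the calcium-binding chaperone CALR by 0.28 (adjusted p = 7.00e-05). XBP1, the transcription factor spliced by IRE1, had 1098 to 1292 (median 1229) at IC5, 794 to 1019 (median 915) at IC20/100 and 1059 to 1421 (median 1330.1) in controls. IC5 and controls overlapped for XBP1, IC20/100 lay below both, and IC5 exceeded it by 0.37 ± 0.05 (SE, adjusted p = 4.38e-07).

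Genes induced by p53 showed 9 of 22 members higher and 0 lower at IC5 (median 0.24). The list shares SESN2 and GDF15 with the ATF4 program, of which SESN2 was called. CDKN1A (p21), an inhibitor of cyclin-dependent kinases, had 908 to 1549 (median 1374) at IC5, 648 to 989.6 (median 831) at IC20/100 and 1648 to 2949.6 (median 2206) in controls. The difference between IC5 and IC20/100 was 0.65 ± 0.13 (SE, adjusted p = 0.000577), and 7 of 8 IC5 libraries lay above every IC20/100 library. The death receptor TNFRSF10B differed by 0.30 (adjusted p = 7.94e-07), the exonuclease AEN by 0.32 (adjusted p = 1.83e-06) and the cyclin CCNG1 by 0.23 (adjusted p = 7.31e-05). Of 21 genes of apoptosis and inflammation 4 rose and 0 fell, where 2.33% of all genes were higher. The BH3-only proteins PMAIP1 (NOXA) and BBC3 (PUMA) differed by 0.62 (adjusted p = 4.30e-06) and 0.26 (adjusted p = 0.00676), and both were lower than controls at both concentrations. PMAIP1 differed from controls by -0.52 at IC5 (adjusted p = 2.72e-05) and -1.15 at IC20/100 (adjusted p = 1.36e-15). In the fit of the 15 libraries alone 5 of the p53 targets were called.

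**Figure D3:**
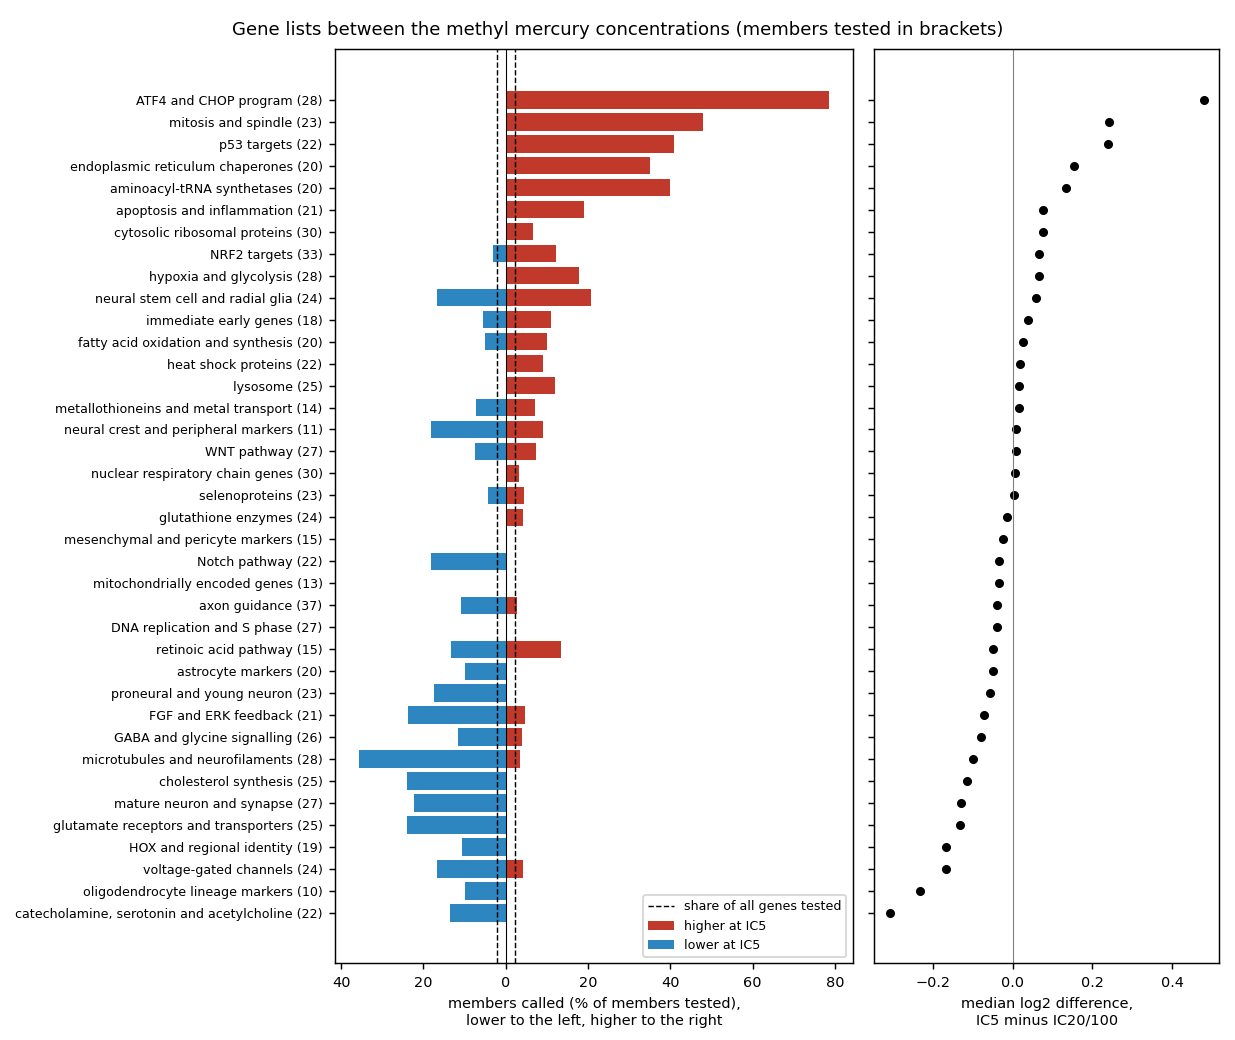
Left, members called higher (right of 0) or lower (left of 0) at IC5 as a percentage of members tested (x axis), for 38 gene lists with at least 10 members tested, with the share among all genes tested as dashed lines. Right, the median log2 difference of each list. The ATF4 and CHOP program stands at the top with a median of 0.48, and the catecholamine, serotonin and acetylcholine list at the bottom with -0.31.

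Of the gene groups that answer most directly to metals, electrophiles and selenium, 2 of 14, 5 of 33 and 2 of 23 members were called between the concentrations, against 4.54% of all genes. Of 14 tested genes of metallothioneins and metal transport 1 rose and 1 fell, with a median of 0.02. MT2A, an inducible metallothionein, had 12.9 to 28.9 (median 21.3) at IC5, 19.1 to 27.5 (median 21.1) at IC20/100 and 6.51 to 20.4 (median 13.1) in controls. The exposed groups overlapped (-0.16 ± 0.17 SE, adjusted p = 0.743), and differed from controls by 0.60 at IC5 (adjusted p = 0.00545) and 0.76 at IC20/100 (adjusted p = 0.000604). MT1X had 2.97 to 14.8 (median 9.62) at IC5, against 10.5 to 19.1 (median 13.9) at IC20/100 and did not pass the test (-0.55, adjusted p = 0.427). MT1F passed it at -1.14 ± 0.33 (SE, adjusted p = 0.0274) with values of 0 to 3.69 (median 1.07) at IC5, against 1.77 to 9.16 (median 4.36) at IC20/100, all under 10, and the 1 gene called higher was FTL. The zinc exporter SLC30A1, a target of the metal sensor MTF1, differed by 0.04 ± 0.07 (SE, adjusted p = 0.882).

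Targets of NRF2, the factor released from KEAP1 by electrophiles, gave 4 of 33 higher and 1 lower at IC5 (median 0.07). The 4 were SLC7A11, which the ATF4 list also holds, PIR, NQO1 and the ferritin light chain FTL. PIR, an iron-binding nuclear protein, had 81.5 to 129.9 (median 94.5) at IC5, 51.5 to 78.4 (median 57.4) at IC20/100 and 80.7 to 104 (median 96.9) in controls. IC5 and controls overlapped for PIR, every IC5 library lay above every IC20/100 library, and the difference was 0.69 ± 0.12 (SE, adjusted p = 3.53e-05). NQO1, a quinone reductase, differed by 0.40 (adjusted p = 0.0155), FTL by 0.15 (adjusted p = 0.0219) and the aldo-keto reductase AKR1C2 by -0.24 (adjusted p = 0.0227). Members that did not pass include heme oxygenase HMOX1, which differed by 0.42 (adjusted p = 0.189), the glutamate-cysteine ligase subunit GCLM by 0.07 (adjusted p = 0.902) and sulfiredoxin SRXN1 by 0.19 (adjusted p = 0.645). Of 24 glutathione enzymes only CHAC1 passed.

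Among 23 selenoproteins and selenium factors, 1 rose and 1 fell (median 0.00). SEPHS2, which makes the selenium donor for selenocysteine, had 843 to 918 (median 899.5) at IC5, 681 to 838 (median 751) at IC20/100 and 726 to 822 (median 785) in controls. All IC5 libraries exceeded all IC20/100 libraries, by 0.25 ± 0.04 (SE, adjusted p = 6.53e-06). SELENOW, a small muscle and brain selenoprotein, had 1134 to 1529 (median 1403) at IC5, 1470.3 to 1714 (median 1623) at IC20/100 and 1523 to 1777 (median 1597) in controls and differed by -0.23 ± 0.05 (SE, adjusted p = 0.000451), with 6 of 8 IC5 libraries below every IC20/100 library. The thioredoxin reductase TXNRD1 differed by 0.02 ± 0.11 (SE, adjusted p = 0.96) and the lipid hydroperoxide reductase GPX4 by 0.07 ± 0.07 (SE, adjusted p = 0.715), which did not pass. Of 22 heat shock genes, the Hsp90 cochaperone FKBP4 (0.31, adjusted p = 0.000218) and the Hsp70 cochaperone BAG3 (0.16, adjusted p = 0.0401) rose and 0 fell. BAG3 lost its call in 15 of 29 alternatives.

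Progenitor genes moved in both directions. Of 24 neural stem cell and radial glia genes, 5 rose and 4 fell at IC5, with a median of 0.06. Of all genes, 2.33% were higher and 2.21% lower. FABP7, the brain fatty acid binding protein of radial glia (chr6:122779475-122784074, plus strand), was lower at both concentrations than in controls and lowest at IC5. Its values were 1185 to 1513 (median 1409.6) at IC5, 2039 to 2205 (median 2049.7) at IC20/100 and 3226 to 3474 (median 3283) in controls. No 2 of the 3 groups overlapped, and IC5 minus IC20/100 was -0.60 ± 0.04 (SE, adjusted p = 9.69e-19). LIN28A, which binds let-7 precursors in early progenitors and pluripotent cells, showed the other pattern, with 164 to 220.5 (median 184) at IC5, 89.3 to 118 (median 101) at IC20/100 and 162 to 219 (median 186) in controls. IC5 and controls overlapped for LIN28A, all IC20/100 libraries lay below both, and the difference was 0.85 ± 0.08 (SE, adjusted p = 1.11e-13).

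The heparin-binding growth factor PTN had 1137 to 1323 (median 1273) at IC5, against 1454 to 1673 (median 1492) at IC20/100 and differed by -0.28 ± 0.04 (SE, adjusted p = 6.84e-08) without overlap. The SoxB1 factors SOX1 and SOX2 differed by 0.20 (adjusted p = 2.05e-05) and 0.17 (adjusted p = 9.60e-05), and the intermediate filament NES by -0.18 (adjusted p = 0.000295). Among pluripotency markers LIN28A was the 1 gene called of 7 tested. FBN2, a fibrillin of microfibrils in developing tissue, had the lowest p-value of all genes tested. Its values were 3275 to 3850.1 (median 3471) at IC5, 2366 to 2621 (median 2465) at IC20/100 and 2871 to 3398 (median 3112) in controls. The groups at IC5 and IC20/100 did not overlap, with a difference of 0.49 ± 0.03 (SE, adjusted p = 6.85e-19), and IC20/100 lay below all controls. The linker histone H1F0, which rises in non-dividing cells, differed by 0.38 ± 0.04 (SE, adjusted p = 1.40e-10).

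ROBO3, LMX1A and TFAP2B were lower at IC5 than in either other group, whose libraries overlapped. ROBO3, a receptor that controls midline crossing of commissural axons, had 2814 to 3540.5 (median 3187) at IC5, 4284 to 5386 (median 4909) at IC20/100 and 4588 to 5283 (median 4695) in controls. All IC5 libraries lay below every IC20/100 and every control library, and IC5 minus IC20/100 was -0.60 ± 0.05 (SE, adjusted p = 7.39e-17). Against controls ROBO3 differed by -0.61 at IC5 (adjusted p = 1.32e-18) and -0.01 at IC20/100 (adjusted p = 0.937). LMX1A, a roof plate and midbrain dopaminergic factor, had 376 to 442 (median 395) at IC5, 512 to 632 (median 609) at IC20/100 and 593 to 689 (median 619) in controls and differed by -0.56 ± 0.06 (SE, adjusted p = 3.15e-10). Its paralog LMX1B, which also acts in serotonergic neurons, differed by -0.37 ± 0.04 (SE, adjusted p = 2.95e-11). For LMX1A the IC5 libraries lay below both other groups, and for LMX1B IC20/100 lay above both. TFAP2B, a neural crest and inhibitory interneuron factor, had 3978 to 4439.7 (median 4228) at IC5, 4947 to 5818 (median 5517) at IC20/100 and 5368 to 5810.2 (median 5519) in controls and differed by -0.36 ± 0.04 (SE, adjusted p = 1.23e-12). Of 37 axon guidance genes 4 fell and 1, UNC5B, rose, where 2.21% of all genes were lower and 2.33% higher. The ephrin EFNB2 and the receptor EPHB1 differed by -0.24 (adjusted p = 6.78e-06) and -0.23 (adjusted p = 0.000805). Of 19 genes of HOX and regional identity only LMX1A and LMX1B were called, against 4.54% of all genes.

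**Figure D4:**
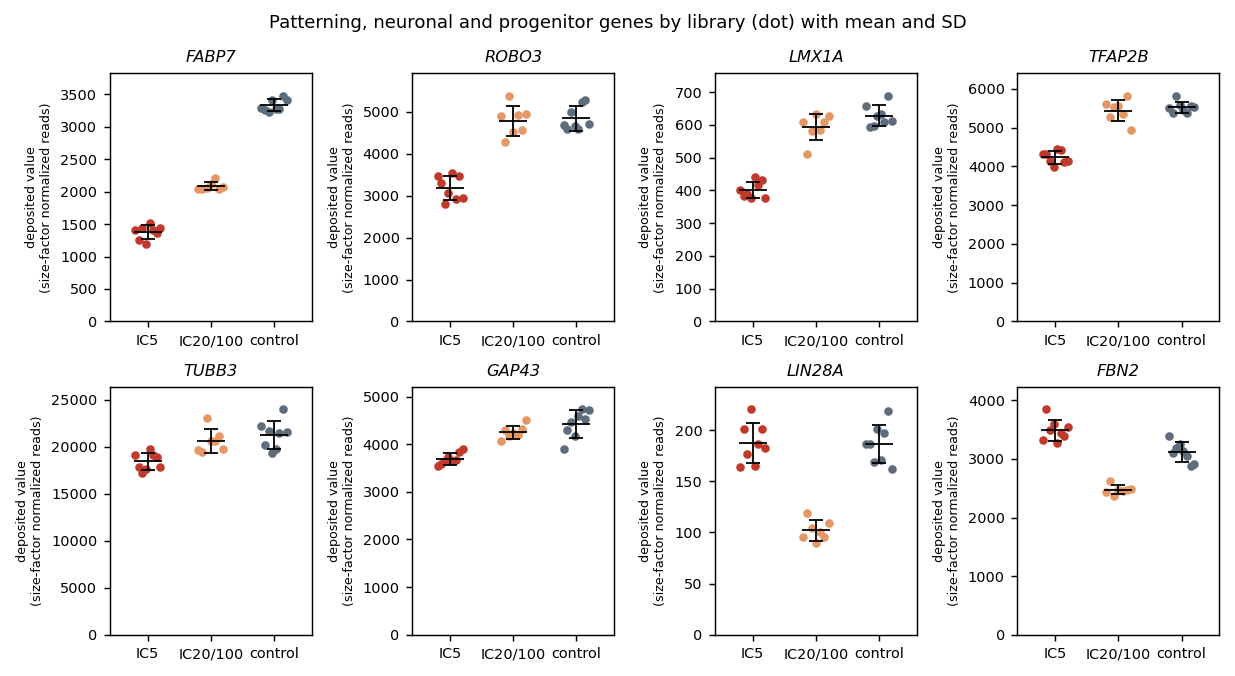
Deposited values (y axis, size-factor normalized reads, from 0) of 8 patterning, neuronal and progenitor genes in the libraries at IC5 (8), at IC20/100 (7) and in controls (8). Dots are libraries, and the bar with whiskers is the mean with its SD. FABP7 is lowest at IC5 and highest in controls, ROBO3, LMX1A and TFAP2B are low at IC5 only, and LIN28A is low at IC20/100 only.

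Feedback targets of fibroblast growth factor and ERK signalling were lower at IC5 in 5 of 21 members and higher in 1, SPRY2 (median -0.07). ETV4, an ETS factor induced by ERK, had 20.9 to 68.99 (median 49.9) at IC5, 64.1 to 93.5 (median 81.97) at IC20/100 and 98.4 to 187 (median 142) in controls. 7 of the 8 IC5 libraries were below every IC20/100 library, both exposed groups were below the controls, and the difference was -0.82 ± 0.17 (SE, adjusted p = 0.000573). ETV5 differed by -1.01 ± 0.31 (SE, adjusted p = 0.0447), with IC20/100 replicate 5 at 234 and the rest of that group between 59.2 and 109, and it lost its call in 16 of 29 alternatives. The inhibitor SPRY4, the phosphatase DUSP4 and cyclin D1 (CCND1) differed by -0.48 (adjusted p = 0.0115), -0.13 (adjusted p = 5.89e-05) and -0.34 (adjusted p = 0.00275). CCND1 had 2128 to 2769 (median 2423) at IC5, 2609 to 3639 (median 3104) at IC20/100 and 3353 to 4353 (median 3667) in controls, and its log2 differences from controls were -0.61 at IC5 (adjusted p = 2.18e-09) and -0.27 at IC20/100 (adjusted p = 0.0126).

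Retinoic acid genes divided into 2 higher and 2 lower of 15. CYP26B1, which degrades retinoic acid, had 170.0 to 423 (median 253) at IC5, 323 to 769 (median 483) at IC20/100 and 753 to 954 (median 854) in controls. All IC5 libraries lay below all controls, IC20/100 overlapped both, and IC5 minus IC20/100 was -0.99 ± 0.15 (SE, adjusted p = 2.26e-06). The binding proteins CRABP1 and CRABP2 were higher at IC5 by 0.28 (adjusted p = 3.29e-05) and 0.29 (adjusted p = 0.0129). ALK, a receptor tyrosine kinase of the developing nervous system, had 35.9 to 60.7 (median 50.1) at IC5, against 61.9 to 122 (median 82.2) at IC20/100, with no overlap and a difference of -0.78 ± 0.14 (SE, adjusted p = 4.00e-05).

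Of 28 microtubule and neurofilament genes 10 fell at IC5, against 2.21% of all genes, 1, MAP1A, rose and 17 did not pass (median -0.10). TUBB2A, a beta-tubulin of young neurons, had 5812 to 7203 (median 6265) at IC5, against 7099 to 8683 (median 7242) at IC20/100, and 7 of 8 IC5 libraries lay below every IC20/100 library (-0.24 ± 0.03 SE, adjusted p = 6.69e-08). TUBB4A differed by -0.31 ± 0.04 (SE, adjusted p = 1.44e-07) without overlap. TUBA1A and TUBB3, the main neuronal tubulins, differed by -0.20 (adjusted p = 2.24e-06) and -0.17 (adjusted p = 2.31e-06). The young-neuron microtubule protein DCX had 21296 to 26291 (median 24054) at IC5, 24539.9 to 27332 (median 25964) at IC20/100 and 24962 to 29688 (median 26343) in controls, an overlapping difference of -0.12 ± 0.03 (SE, adjusted p = 0.0204), and the dendritic MAP2 differed by -0.10 (adjusted p = 0.0297). MAP2 lost its call in 15 of 29 alternatives. Closely related tubulins share reads, so the split between them is uncertain. The count of 10 was 6 in the fit of the 15 libraries alone, without IC20/100 replicate 4 and with no filter on low values.

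Mature neuron and synapse genes fell in 6 of 27 and rose in 0, with a median of -0.13. GAP43, a growth cone protein, had 3537 to 3892 (median 3659) at IC5, 4073 to 4501 (median 4229) at IC20/100 and 3900.3 to 4736 (median 4489.9) in controls. Every IC5 library lay below every IC20/100 library, and the difference was -0.20 ± 0.03 (SE, adjusted p = 4.57e-06). The vesicle protein SV2A differed by -0.15 (adjusted p = 0.000151), the calcium sensor SYT1 by -0.27 (adjusted p = 0.00747) and the active zone scaffold BSN by -0.16 (adjusted p = 0.00241). RBFOX1, a splicing regulator of neurons, had 153 to 235 (median 205) at IC5, against 215 to 727 (median 470.4) at IC20/100, so its larger difference of -1.05 ± 0.31 (SE, adjusted p = 0.0355) comes with a wide spread at IC20/100, and the call was lost in 13 of 29 alternatives. In the fit of the 15 libraries alone 1 of the 27 was called.

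Of 25 glutamate receptors and transporters, 6 fell and 0 rose (median -0.13), a count that was 3 in the fit of the 15 libraries alone. GRIN3A, an NMDA receptor subunit, had 116 to 165 (median 145) at IC5, 198 to 306 (median 215) at IC20/100 and 161 to 254 (median 222) in controls. All IC5 libraries lay below all at IC20/100, which overlapped the controls, and the difference was -0.63 ± 0.10 (SE, adjusted p = 2.12e-06). GRIK3, a kainate receptor subunit, GRIN2D and the vesicular transporter SLC17A6 differed by -0.24 (adjusted p = 3.96e-05), -0.21 (adjusted p = 0.0173) and -0.29 (adjusted p = 0.000341), each without overlap. Of 22 catecholamine, serotonin and acetylcholine genes 3 fell and 0 rose, with a median of -0.31. The choline transporter SLC5A7 had 30.4 to 47.2 (median 42.1) at IC5, 60.5 to 98.9 (median 74.9) at IC20/100 and 45.8 to 70.5 (median 52.6) in controls. IC20/100 lay above IC5 in every library, and the difference was -0.86 ± 0.12 (SE, adjusted p = 1.64e-07). DBH, which makes noradrenaline, had 6.59 to 14.03 (median 8.81) at IC5, 14.8 to 37.2 (median 27.3) at IC20/100 and 5.48 to 26.7 (median 9.86) in controls and differed by -1.26 ± 0.21 (SE, adjusted p = 1.91e-05). Tyrosine hydroxylase (TH) had 230.3 to 389 (median 339) at IC5, 355 to 474 (median 412) at IC20/100 and 713 to 931 (median 812) in controls and differed by -0.33 ± 0.08 (SE, adjusted p = 0.00533).

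GAD2, which makes GABA, had 29.7 to 92.2 (median 61.4) at IC5, against 37.8 to 146 (median 90.7) at IC20/100 and did not pass, with a difference of -0.48 ± 0.26 (SE, adjusted p = 0.39). Of 26 genes of GABA and glycine signalling 3 fell and 1, SLC6A9, rose. Voltage-gated channels fell in 4 of 24 and rose in 1, HCN2. For both lists, 2.21% of all genes were lower and 2.33% higher. SCN3B, an accessory sodium channel subunit, had 1681 to 1854 (median 1784) at IC5, 1957 to 2209 (median 2019) at IC20/100 and 1945 to 2115 (median 2023) in controls and differed by -0.23 ± 0.03 (SE, adjusted p = 1.08e-08), below both other groups in all libraries. The potassium channel KCNH2 and the calcium channel CACNA1B differed by -0.13 (adjusted p = 0.018) and -0.24 (adjusted p = 0.019). Young-neuron factors EBF3, HES6 and DLL1 differed by -0.20, -0.20 and -0.12 on the log2 scale, 3 of the 4 called of 23, the other being DCX.

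Of 23 mitosis and spindle genes 11 rose at IC5 and 0 fell (median 0.24), whereas of 27 DNA replication genes limma, edgeR and DESeq2 each called 0 (median -0.04). At an unadjusted p under 0.05, 0 of the 27 were higher and 2 lower in limma. PLK1, a kinase of mitotic entry and exit, had 962 to 1246 (median 1159) at IC5, 786 to 933 (median 878) at IC20/100 and 989.6 to 1228 (median 1054) in controls. IC5 and controls overlapped for PLK1, IC20/100 lay below both, and IC5 exceeded it by 0.36 ± 0.06 (SE, adjusted p = 6.98e-06). The APC/C cofactors UBE2C and CDC20 differed by 0.30 (adjusted p = 5.20e-05) and 0.36 (adjusted p = 0.000355), and the spindle assembly factor TPX2 by 0.20 (adjusted p = 0.0017). MKI67, present through the cycle, had 3320.2 to 4771 (median 3952) at IC5, 3385 to 4220.2 (median 3598) at IC20/100 and 2924 to 3656 (median 3235) in controls and did not pass between the concentrations (0.09 ± 0.07 SE, adjusted p = 0.564). The count of 11 was 7 without IC5 replicate 4, 7 with IC20/100 replicate 8 kept and 4 in the fit of the 15 libraries alone.

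Called glial and neural crest genes were lower at IC5, except NGFR. Of 20 astrocyte markers tested, SOX9 (-0.16, adjusted p = 0.000453) and S100B (-0.70, adjusted p = 0.00261) fell and 0 rose, and GFAP did not pass (0.21 ± 0.48 SE, adjusted p = 0.898). The summed values of the 22 astrocyte markers were 14276.0 to 19189.9 at IC5, 15407.3 to 17499.6 at IC20/100 and 17512.9 to 19760.8 in controls. The summed 16 mesenchymal and pericyte markers were 6133.6 to 8068.7 at IC5, 6502.1 to 7916.2 at IC20/100 and 8006.4 to 10598.3 in controls, with 0 of 15 tested called between the concentrations by limma, edgeR or DESeq2 and 1 at an unadjusted p under 0.05. The summed 14 oligodendrocyte lineage markers were 7052.2 to 8467.7 at IC5, 8534.4 to 9247.6 at IC20/100 and 11731.2 to 12935.5 in controls. The summed 12 neural crest and peripheral markers were 15175.0 to 17514.5 at IC5, 16747.3 to 18101.1 at IC20/100 and 20308.8 to 21725.4 in controls. Of 11 tested, 2 fell, the sensory factor POU4F1 differing by -0.20 (adjusted p = 3.92e-06), and the neurotrophin receptor NGFR rose by 0.47 (adjusted p = 4.87e-06). The part of such cells in the results above was not tested.

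Some of the largest differences among single genes rested on a few libraries. GALP, a neuropeptide gene, was at 1.23 to 8.18 (median 3.48) at IC5. At IC20/100 it was at 366, 293, 112 and 576 in replicates 1, 3, 5 and 6 and at 4.36, 5.72 and 12.0 in replicates 2, 4 and 7, and controls ranged from 7.57 to 363 (-3.53 ± 1.05 SE, adjusted p = 0.0324). AJAP1, a junction protein gene, was at 474 to 609 at IC5, and at 3311 and 2901 in IC20/100 replicates 4 and 7, with the other 5 between 648 and 781. CEP295, a centriole gene, was at 556 to 699 at IC5 and at 1383, 2013 and 4475 in IC20/100 replicates 2, 3 and 6, with the other 4 between 543 and 659. The fit of the 15 libraries alone gave adjusted p = 0.251 for AJAP1 and 0.212 for CEP295. YBX3, a cold shock RNA-binding protein, had 778 to 1407 (median 995) at IC5, against 166 to 1136 (median 581) at IC20/100 (1.06 ± 0.25 SE, adjusted p = 0.00406), and FAM72B, which has near-identical copies, had 141 to 509.9 (median 385) at IC5, against 129 to 205 (median 168) at IC20/100 (1.04 ± 0.27 SE, adjusted p = 0.00909). CDC42EP1, an effector of CDC42, differed by 0.96 (adjusted p = 3.36e-05), and CPNE7, CLUL1 and MFSD9 by -0.94 (adjusted p = 0.00703), -0.87 (adjusted p = 8.51e-05) and -0.89 (adjusted p = 0.0445). MFSD9 lost its call in 18 of 29 alternatives.

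The same contrast, IC5 minus IC20/100, was formed for the other compounds, which use libraries of their own. It called 27 genes for chlorpyrifos (0.134%, 0.0746% higher and 0.0596% lower), 1175 for fluoxetine (5.84%, 3.47% and 2.37%), 8970 for acrylamide (44.6%, 21.8% and 22.8%) and 4278 for valproic acid (21.3%, 11.7% and 9.56%), against 913 for methyl mercury (4.54%). The ATF4 and CHOP program went the other way in 3 of these compounds. Of its 28 members, 0 rose and 25 fell with acrylamide (median -0.95), 0 rose and 23 fell with valproic acid (median -0.56), and 2 rose and 12 fell with fluoxetine (median -0.18). For chlorpyrifos limma called 0 (median -0.11), and at an unadjusted p under 0.05 it had 1 higher and 10 lower. The difference of the concentration effects, methyl mercury minus the other compound, was called higher for 25 members against acrylamide (18.2% of all genes), 25 against valproic acid (7.03%), 18 against fluoxetine (2.05%) and 19 against chlorpyrifos (1.75%), and lower for 0 in each. Of all genes, 16.8%, 8.56%, 2.63% and 1.86% were lower in that order, and 35%, 15.6%, 4.68% and 3.61% differed in either direction. IC5 and IC20/100 are set per compound, so the exposures are matched by name and not by amount. Chlorpyrifos and fluoxetine cultures held dimethyl sulfoxide at 0.25%, as did those with methyl mercury, and none was listed for acrylamide or valproic acid. What this difference in vehicle adds to the comparison between compounds was not tested.

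**Figure D5:**
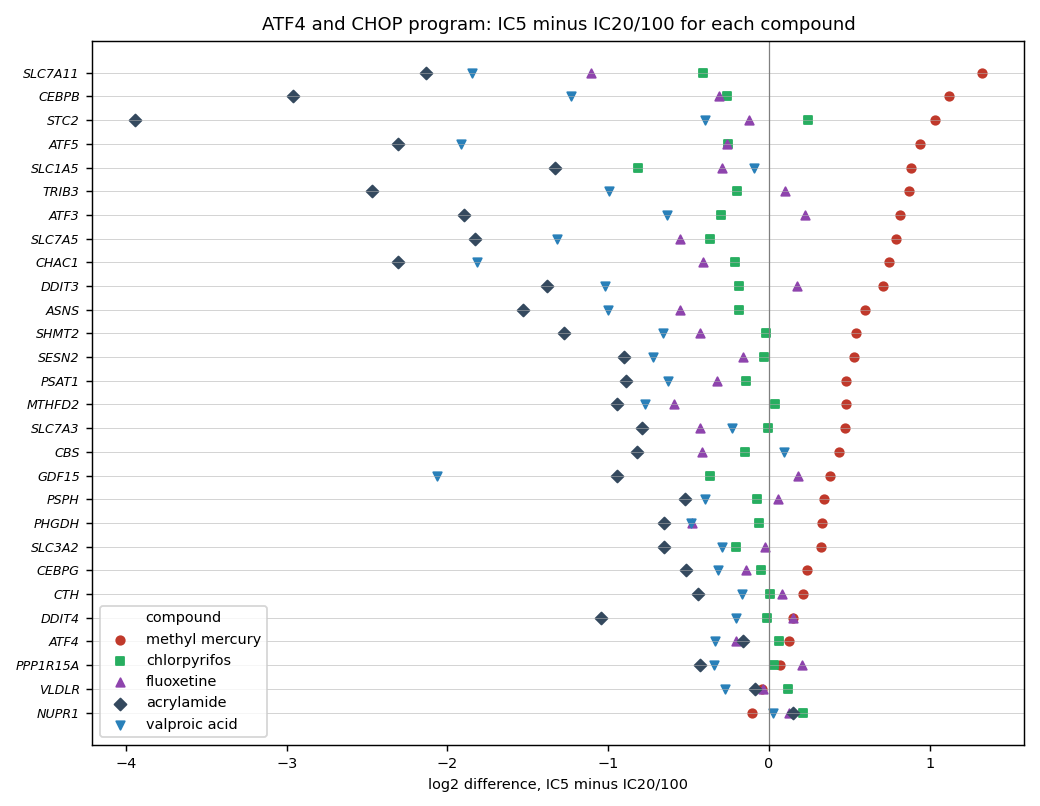
Log2 difference between IC5 and IC20/100 (x axis) of the 28 tested members of the ATF4 and CHOP program (y axis, ordered by their value for methyl mercury) for 5 compounds, marked by colour and shape. For methyl mercury 26 of 28 points lie above 0, and for acrylamide 27 of 28 lie below 0.

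SLC7A11 had a log2 difference between concentrations of 1.33 for methyl mercury, -0.41 (adjusted p = 0.178) for chlorpyrifos, -1.11 (adjusted p = 1.03e-10) for fluoxetine, -2.13 (adjusted p = 2.31e-25) for acrylamide and -1.85 (adjusted p = 5.19e-21) for valproic acid. PSAT1 gave 0.48 for methyl mercury, -0.14 (adjusted p = 0.126) for chlorpyrifos, -0.32 (adjusted p = 2.39e-09) for fluoxetine, -0.89 (adjusted p = 7.11e-32) for acrylamide and -0.63 (adjusted p = 2.07e-22) for valproic acid. For ROBO3 the methyl mercury effect minus that of the other compound was -0.62 (adjusted p = 3.32e-11) for chlorpyrifos, -0.35 (adjusted p = 9.17e-05) for fluoxetine, -0.90 (adjusted p = 2.81e-20) for acrylamide and -0.64 (adjusted p = 6.98e-13) for valproic acid. FABP7 was lower at IC5 for acrylamide too (-0.86, adjusted p = 2.97e-30), and higher for fluoxetine (0.48, adjusted p = 3.08e-15) and valproic acid (0.31, adjusted p = 4.36e-09).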

How the data were processed

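The authors deposited 1 table of 58434 genes in 96 libraries, whose unit is a signal, gene counts divided by 1 size factor per library. Per the submitters' processing notes, the tools were bcl2fastq, FastQC 0.11.8, MultiQC 1.0, Salmon 1.3.0 and DESeq2 1.30.0, with GRCh38; per the labels' protocols the libraries were TruSeq Stranded mRNA. Neither header nor labels name the annotation release. Whole reads were recovered by dividing each column by its smallest positive value; 100% of positive values were whole within 0.001 read. Within groups, 49 pairs of libraries all differed beyond counting error (chi-square over its degrees of freedom at least 15.25). Such counting error is large for values under about 10.

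Of the genes, 20118 reached a value of 10 in 8 or more of 87 day 10 libraries, and their log2(value + 2) was fitted with limma 3.58.1 (R 4.3.3, trended prior), with group and sequencing run as terms (71 residual degrees of freedom). Fold changes are on the log2(value + 2) scale, which understates low genes. The plan named this test for normalized values. P-values were adjusted by Benjamini-Hochberg over all genes tested, and genes were called under 0.05. Positions come from GENCODE 29, matched by identifier, and symbols are those of that release. The fit was checked on simulated data.

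Members and lists were chosen with earlier results of these data known. The rule for named genes took, from called protein-coding genes averaging 50 or more in either group, the 12 highest and 12 lowest log2 differences, up to 4 called members of each list with the lowest adjusted p, all tested metal, NRF2 and selenium genes, 9 cell markers whatever their result, and 4 genes for each compound compared. ATF4, DDIT3, SLC7A5, SLC3A2, CEBPG, PHGDH, SHMT2, MTHFD2, CARS and CDKN1A were chosen after their values were seen, as were single genes given for small counts (MAP1A, SPRY2, SLC6A9, HCN2, GDF15) and those singled out for a library. A few genes chosen by the rule are left out of the text. Replicate numbers paired libraries weakly at most, so no block was used. The correlation of deviations of same-numbered libraries was -0.0686 to 0.0693 over 7 numbers, and -0.0025 to 0.0752 with run removed too. Alternatives were other pseudocounts, filters, TMM scaling, other libraries and terms, and edgeR 4.0.16 (quasi-likelihood) and DESeq2 1.42.0 on recovered reads. Salmon output and reads were not used here.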

Additional observations from a re-analysis of the deposited data

Results flagged for a closer look

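Within the named genes, 423 groups of 7 or 8 libraries were screened for a single library far from the rest, and 37 had one, where chance gives about 1 in 20. In IC5 replicate 4 these were TRIB3 at 184 (next lowest 257), SARS at 3727 (next lowest 4199.5), CDKN1A at 908 (next lowest 1245), SELENOW at 1134 (next lowest 1344), FKBP4 at 4579 (next lowest 5307), NES at 16666 (next highest 14749), ETV5 at 78.8 (next highest 51.1), GRIN2D at 547 (next lowest 702), LFNG at 368 (next lowest 429), DLL1 at 3823 (next lowest 4175), EFNB2 at 898 (next highest 798) and NGFR at 1616 (next lowest 2209.8). In IC5 replicate 1 they were NQO1 at 108 (next lowest 129.8) and MFSD9 at 552 (next highest 348). In IC5 replicate 6 they were SLC3A2 at 5302 (next highest 4468), CARS at 2804 (next highest 1917) and CPT1A at 450.1 (next highest 276). IC5 replicate 5 stood apart for SRXN1 at 109.9 (next lowest 186).

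At IC20/100, replicate 2 stood apart for ASNS at 2111 (next highest 1766), SHMT2 at 2309 (next highest 1904) and LMX1A at 512 (next lowest 582), and replicate 3 for CDC20 at 1043 (next highest 911) and DLL1 at 5088 (next highest 4683). Replicate 1 did so for CCNG1 at 2569.7 (next lowest 2865), replicate 4 for TXNRD1 at 2118 (next highest 1713), replicate 5 for GPX4 at 2709.7 (next highest 2149.9) and ETV5 at 234 (next highest 109), and replicate 6 for GRIN3A at 306 (next highest 225) and CEP295 at 4475 (next highest 2013). Among controls, replicate 7 stood apart for SLC7A11 at 439.6 (next lowest 685), CEBPG at 1748 (next lowest 1994), HSP90B1 at 7973 (next lowest 8468), PMAIP1 at 179.9 (next lowest 254) and CRABP1 at 4082 (next highest 3435), replicate 1 for GAD2 at 43.4 (next lowest 89.6) and EPHB1 at 1026 (next highest 861), and replicate 5 for DBH at 26.7 (next highest 11.7). In the ATF4 and CHOP program 21 or 22 members were called whichever of the 15 libraries was left out.

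The effect of concentration, IC5 minus IC20/100, differed between methyl mercury and another compound for 727 genes (chlorpyrifos), 942 (fluoxetine), 7043 (acrylamide) and 3137 (valproic acid) in the test of the difference itself. In the ATF4 and CHOP program this held for 19, 18, 25 and 25 members in the same order of compounds. For SLC7A11 the difference of effects was 1.74 against chlorpyrifos, 2.43 against fluoxetine, 3.46 against acrylamide and 3.17 against valproic acid. For PSAT1 it was 0.62, 0.80, 1.37 and 1.11 in that order. FABP7 gave -0.56, -1.08, 0.26 and -0.91, and ROBO3 gave -0.62, -0.35, -0.90 and -0.64.

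The library left out, IC20/100 replicate 8, had a rho of -0.334 between deviation and transcript length, outside the -0.0428 to 0.103 of the controls.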

How the results depend on the processing

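All counts of genes called against controls and of differences between compounds stayed within 1.5 times under every alternative run for them. Counts between IC5 and IC20/100 (913, and 112 of at least 1.5-fold) moved further in 3 fits, and the second also with DESeq2. They were 247 and 48 in the 15 libraries alone, 68 and 25 with the replicate block in place of run in the libraries with shared numbers, and 250 and 46 in those libraries without a block or run (added after the data were seen). DESeq2 gave 1066 (877 shared with limma) but 182 of at least 1.5-fold; edgeR gave 918, 860 of them shared. Same-numbered libraries matched weakly (2 of 7 libraries matched best with their own). With group and run removed, their median correlation was 0.030, against 0.007 for other pairs. A replicate block beside run in the 87 libraries gave 1071 genes. What libraries of the same number share was not tested. Leaving out 1 library gave 687 to 921, and 89 to 129 of at least 1.5-fold. Members called in the lists, a count added after the data were seen, were in the 15 libraries alone 2 synthetases, 5 p53 targets, 4 mitosis, 6 microtubule, 1 mature neuron and 3 glutamate genes. With the replicate block they were 12 ATF4 program genes, 2 chaperones, 1 synthetase, 3 p53 targets, 1 mitosis, 0 microtubule, 1 mature neuron and 1 glutamate gene. Without block and run they were 4 synthetases, 5 p53 targets, 6 mitosis, 5 microtubule, 2 mature neuron and 3 glutamate genes. Leaving out 1 library gave 6 to 10 microtubule and 7 to 12 mitosis genes. Microtubule genes were 6 with no filter, and mitosis genes 7 with IC20/100 replicate 8 kept. Of 4074 values of 141 named genes under alternatives, 3680 kept direction and call, 386 lost the call and 8 changed sign, all in genes not called: GPX4 with replicate 8 kept (-0.0483), and TXNRD1 at -0.00922 in the 15 libraries, -0.00515 without run, -0.00984 with and without the block, and -0.0182 to 0.0736 on leaving out 1 library. Of the 130 named genes called, 34 kept their call in every alternative run for them. TMM scaling moved the median of all genes to 0.0084 and split the calls 522 and 388, against 469 and 444. The cause of these changes was not tested. Depth limits genes under about 10.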

Other observations

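Of 25 cholesterol synthesis genes 6 fell at IC5, 0 rose and 19 did not pass (median -0.11), where 2.21% of all genes were lower. ACAT2, the acetyl-CoA acetyltransferase at the start of the pathway, had 1739.7 to 2033 (median 1963) at IC5, 2046 to 2422 (median 2226) at IC20/100 and 1900.2 to 2256 (median 2095) in controls, with every IC5 library below every IC20/100 library (-0.20 ± 0.04 SE, adjusted p = 0.000283). Squalene epoxidase SQLE, mevalonate kinase MVK and the sterol reductase TM7SF2 differed by -0.18 (adjusted p = 0.000749), -0.28 (adjusted p = 0.00123) and -0.22 (adjusted p = 0.00939). Among 20 genes of fatty acid metabolism, CPT1A, which carries fatty acids into mitochondria, differed by 0.51 (adjusted p = 0.0103) and the desaturase SCD by -0.12 (adjusted p = 0.0112).

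Of 28 hypoxia and glycolysis genes 5 rose and 0 fell at IC5 (median 0.07). For this list and the Notch and WNT lists below, 2.33% of all genes were higher and 2.21% lower. The collagen prolyl hydroxylases P4HA2 and P4HA1 differed by 0.68 (adjusted p = 0.00107) and 0.32 (adjusted p = 7.44e-05), the growth factor VEGFA by 0.18 (adjusted p = 0.00275) and hexokinase HK2 by 0.15 (adjusted p = 0.015). P4HA2 had 215 to 326 (median 271) at IC5, against 129.8 to 208 (median 169.8) at IC20/100, without overlap. Notch genes fell in 4 of 22 and rose in 0, among them the targets HEYL and HEY1 (-0.70 (adjusted p = 0.00252) and -0.32 (adjusted p = 0.0334)) and the glycosyltransferase LFNG (-0.27, adjusted p = 0.000525). In the WNT pathway 2 of 27 rose, the receptors FZD5 and FZD8 (0.30 (adjusted p = 0.00145) and 0.21 (adjusted p = 0.0207)), and 2 fell, the ligand WNT2B and the inhibitor DKK3 (-0.28 (adjusted p = 0.0188) and -0.20 (adjusted p = 0.0425)). DKK3 lost its call in 16 of 29 alternatives and HEY1 in 13 of 29.

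Lysosomal genes rose in 3 of 25 (NPC2 0.25, CTSL 0.25 and PSAP 0.17 on the log2 scale) and fell in 0, where 2.33% of all genes were higher. The neurotrophin BDNF, also a supplement of the medium, differed by -0.60 (adjusted p = 0.00358). Of 13 mitochondrially encoded genes 0 were called by limma, edgeR or DESeq2, and 2 had an unadjusted p under 0.05 in limma (median -0.03). Of 30 cytosolic ribosomal protein genes, RPL3 and RPL7 were called higher (median 0.08).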
